A study of Mus musculus with 60 samples.

Results

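TRBV21 is 1 of the 29 V segments of the T cell receptor (TCR) beta chain that were named in 2 deposited clonotype tables, 1 for CD4 and 1 for CD8 T cells. Its members were all rows whose V segment was TRBV21, namely 76 of 85775 clonotypes in CD4 (0.0886%) and 68 of 82447 in CD8 (0.0825%). A clonotype here is 1 CDR3 amino acid sequence, and the CDR3 is the stretch of the chain that spans the joined segments. The members were selected on the V name of the tables, and the segment was chosen by its few clonotypes and its usage, so these levels and the form of its CDR3s are described without a test.

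Donor T cells came from C57BL/6 mice that were wild type (WT), lacked STAT3 in T cells (STAT3ko, Stat3 fl/fl with CD4-Cre) or lacked STAT3 and PD-1 (STAT3koPD-1ko). CD4-Cre acts from the thymus onward, in CD4 and CD8 T cells alike. Lethally irradiated WT BALB/c mice, whose major histocompatibility complex is foreign to the donor cells, received these CD90.2+ T cells together with T cell-depleted bone marrow of WT C57BL/6 mice, an allogeneic hematopoietic cell transplantation (HCT). H-2Kb+TCRβ+ donor CD4 and CD8 T cells were sorted from liver and gut on day 6, with 3 recipients combined per library. Each table held 15 libraries, which were 2 per genotype in each tissue and 1 spleen library per genotype. The spleen libraries are titled naive and are called before HCT here, the study's term for donor T cells before transplantation.

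A TCR beta chain is assembled in the thymus when one V, one D and one J segment are cut and joined, with bases lost and added at the joints. The V segment ends with a conserved cysteine and a few further residues that open the CDR3, and the J segment closes it with a phenylalanine. A CDR3 that runs from C to F, W or L is called conventional below. The segment Trbv21 (ENSMUSG00000076477.3) lies on the plus strand of chromosome 6 at 41202550 to 41203044 in mm10 and is annotated by GENCODE as a V gene, not a pseudogene. Its spliced transcript has exons at 41202550 to 41202634 and 41202747 to 41203042, with an annotated coding part from 41202752, inside the second exon. Of 20 V genes with a spliced model in that annotation, TRBV21 was the 1 whose leader exon was not coding. The first ATG of its leader exon stood 1 base out of frame with the CDR3 cysteine, and 17 of the 20 models had a first ATG in frame.

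The sequences show how the main TRBV21 clonotype differs from the rest. The germline end of TRBV21 from the cysteine codon (in capitals) is given first. It is followed by TRBJ2-1, with the part that equals the whole CDR3 of clonotype YAEQFF in capitals.
TRBV21 end: TGTgctagcagtcaatc
TRBJ2-1: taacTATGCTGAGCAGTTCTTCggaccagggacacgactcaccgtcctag
In the next 4 CDR3s, capitals mark the bases that equal the germline TRBV21 end, counted from the cysteine.
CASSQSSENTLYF (CD4): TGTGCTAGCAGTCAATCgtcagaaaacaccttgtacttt
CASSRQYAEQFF (CD4): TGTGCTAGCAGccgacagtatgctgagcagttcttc
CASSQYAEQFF (CD8): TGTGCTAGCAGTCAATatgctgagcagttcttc
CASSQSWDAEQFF (CD8): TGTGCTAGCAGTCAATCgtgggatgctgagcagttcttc
YAEQFF had no cysteine and no D segment. Its 18 bases were all present in the germline Trbj2-1 segment (ENSMUSG00000076492.1), at 41542758 to 41542775 of chromosome 6. The first 12 bases were recorded as the V part, and lay 2 edits from a part of the 17-base germline end of TRBV21. The same held for 2 of the other 24 V ends (TRBV17 and TRBV29), and no V end came closer. Counted from the cysteine codon, YAEQFF equalled the TRBV21 end for 1 base.

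TRBV21 took more of the listed frequency than its number of clonotypes would place it. Usage, the summed frequency of a V segment as a percentage of the listed frequency of a library, averaged 0.725% ± 0.403 (SD, n = 15 libraries) in CD4 and 0.346% ± 0.137 (n = 15) in CD8. It ranked 21 of 28 segments by usage and 24 of 28 by number of clonotypes in CD4, and 20 and 24 of 26 in CD8. Its neighbours in CD4 were TRBV22 at 0.979% ± 0.238 and TRBV24 at 0.356% ± 0.154, and in CD8 TRBV30 at 0.356% ± 0.186 and TRBV23 at 0.282% ± 0.130, so that each lay within 1 SD of TRBV21. Of the 7 V segments of the CD4 table that are annotated pseudogenes, 1 (TRBV22) was used more than TRBV21. In CD8 there were 5 and none was used more. TRBV22, TRBV24 and TRBV28, all 3 pseudogenes, listed more clonotypes than TRBV21 in both tables.

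**Figure D1:**
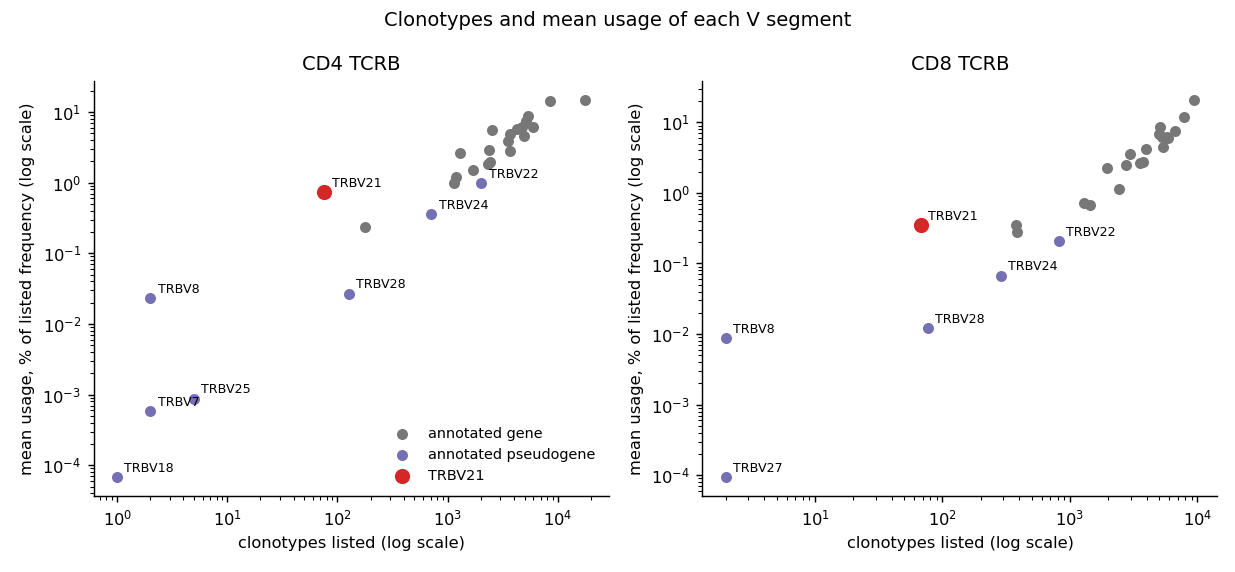
Number of listed clonotypes (horizontal, log scale) and mean usage over 15 libraries in percent of listed frequency (vertical, log scale) of each V segment in CD4 (left) and CD8 (right) TCRB. Grey points are annotated genes, violet points annotated pseudogenes, and TRBV21 (red) stands above the other segments of like clonotype number, at 76 clonotypes and 0.725% in CD4 and 68 and 0.346% in CD8.

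A single clonotype made up nearly the whole of TRBV21. Over the 15 libraries, YAEQFF held 91.9% to 99.7% of the TRBV21 frequency in CD4 and 86.4% to 99.5% in CD8. In CD4 it amounted to 0.389% (WT), 0.473% (STAT3ko) and 0.339% (STAT3koPD-1ko) of all reads before HCT, and it was the most frequent of all listed clonotypes in 10 of 15 libraries. In CD8 the values before HCT were 0.247%, 0.257% and 0.210%, and it came first in 3 of 15 libraries. It was among the first 10 clonotypes in every CD4 library and in 14 of 15 CD8 libraries, and its lowest place was 35, in the CD8 library of WT before HCT. YAEQFF was 1 of 47 clonotypes in CD4 and of 142 in CD8 that were counted in all 18 libraries of the join.

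The form of the CDR3 differed between a count of rows and a sum of frequency. All 75 clonotypes other than YAEQFF in CD4 and 63 of 67 in CD8 were conventional, against 78.6% and 96.5% of the clonotypes of the other V segments. That background was set by TRBV26, nearly all of whose clonotypes were not conventional. With TRBV26 left out, 99.3% of the clonotypes of the other segments were conventional in CD4 and 99.4% in CD8. The 4 exceptions in CD8 were 3 CDR3s without a first cysteine and 1 that did not end in F. By frequency, 95.6% of TRBV21 in CD4 and 94.5% in CD8 (means of 15 libraries) was not conventional. No CDR3 with a stop or a shifted frame was listed for any segment, so the share of non-productive TRBV21 rearrangements, to which the word rarely productive could refer, cannot be read from these tables.

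A second clonotype of the same form was placed under TRBV8, an annotated pseudogene. GAEQFF differs from YAEQFF by T1G and A2G (positions from the first base of the CDR3, YAEQFF base first), printed here with the differing bases in capitals.
GAEQFF: GGtgctgagcagttcttc
It made up 99.6% of TRBV8 frequency in CD4 and 99.2% in CD8. GAEQFF ranged from 0.00207% (WT before HCT) to 0.0696% (STAT3koPD-1ko gut replicate 2) of all reads in CD4, and YAEQFF was 10.6 to 209 times as frequent in the same library. In CD8 it ranged from 0.00109% to 0.0286%, and YAEQFF was 11.1 to 236 times as frequent. Of 16 CDR3s of 18 bases in CD4 and 10 in CD8, YAEQFF and GAEQFF were the 2 most frequent. Besides YAEQFF, the only CDR3 contained in a germline J segment was SYEQYF in CD8 (TRBV24 with TRBJ2-7), listed in 2 libraries.

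**Figure D2:**
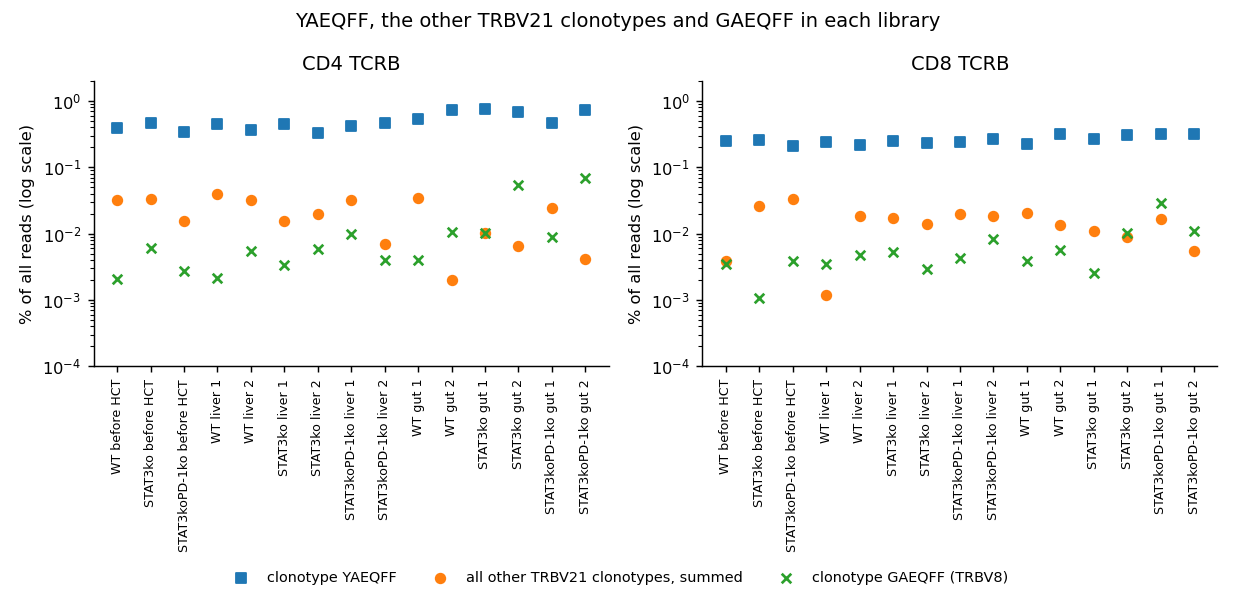
Percent of all reads (vertical, log scale) of YAEQFF (squares), of all other TRBV21 clonotypes summed (circles) and of GAEQFF (crosses) in each of the 15 CD4 (left) and CD8 (right) libraries. In CD4 YAEQFF lies between 0.331% and 0.760%, above both other series in every library, and GAEQFF is highest in gut replicate 2 of STAT3ko and STAT3koPD-1ko.

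The remaining TRBV21 clonotypes were rare and mostly seen in few libraries. They summed to 0.00424% to 0.0434% of the listed frequency of a library in CD4 and to 0.00122% to 0.0338% in CD8. Of the 76 CD4 clonotypes, 60 were counted in 2 libraries, the least the join allows, 11 in 3 and 5 in more, and of the 68 in CD8 the numbers were 49, 15 and 4. Of the 75 and 67 clonotypes other than YAEQFF, 2 in CD4 and 2 in CD8 exceeded 0.01% of reads in any library, against 20.5% and 22.2% of all clonotypes of the tables.

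The most frequent by mean in CD4 was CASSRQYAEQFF (TRBJ2-1), at 0.0187% in STAT3ko before HCT and 0.00314% in WT liver replicate 2, and listed at 0 in the other 13 libraries. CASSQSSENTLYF (TRBJ2-4) was listed in WT libraries alone, at 0.00878% before HCT, 0.00376% in liver replicate 1 and 0.00250% and 0.00152% in gut. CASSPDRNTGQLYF (TRBJ2-2) went the other way, listed at 0 before HCT and at 0.00740% in gut replicate 1 of STAT3koPD-1ko and 0.00661% in gut replicate 2 of STAT3ko as its highest values. The conventional CD4 clonotype listed in the most libraries was one of TRBJ2-3, in 5, none above 0.00362%, and its CDR3 shows the bases of the TRBV21 end in capitals.
TRBJ2-3 clonotype (CD4): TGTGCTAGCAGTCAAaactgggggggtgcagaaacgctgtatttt

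In CD8, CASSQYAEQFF was listed in 7 of the 15 libraries. It joins the TRBV21 end directly to TRBJ2-1, so that YAEQFF forms its last 6 residues. It stood at 0.00291% in STAT3ko before HCT, between 0.00101% and 0.00373% in 3 liver libraries and at 0.00280%, 0.0127% and 0.00277% in 3 gut libraries. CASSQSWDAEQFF and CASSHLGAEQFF were listed in STAT3koPD-1ko libraries alone, at 0.0206% and 0.00688% before HCT, each at 0.00423% in liver replicate 1, and at 0.00139% and 0.00231% in gut replicate 1. The number of clonotypes whose CDR3 ends in YAEQFF with TRBJ2-1 under any V segment was 5185 in CD4 and 7771 in CD8, besides YAEQFF itself.

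CDR3 openings followed the germline end. In CD4, 67 of 75 clonotypes opened with CASS and 48 (64.0%) with CASSQ, against 49.0% and 7.08% of the clonotypes of other segments, or 61.9% and 8.94% without TRBV26. In CD8, 53 of 67 opened with CASS and 38 (56.7%) with CASSQ, against 72.0% and 5.82%. This background pools segments with differing openings. The most frequent clonotype of TRBV2 in both tables, and of TRBV5 in CD4 but not in CD8, also opened with CASSQ. In CD4, the CDR3 equalled the TRBV21 end for a median of 15 of its 17 bases, and 28 clonotypes held all 17. The match was longer than to any of 24 other V ends in 59 of 75, equal in 13 and shorter in 3. In CD8 the median was also 15, with 14 full ends, and the match was longer in 44 of 67, equal in 19 and shorter in 4.

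Length and D segment were also read from the conventional and other rows without YAEQFF. The median CDR3 length was 42 bases for TRBV21 and for the other segments in both tables. The mean was 43.3 bases ± 4.66 (SD over 75 clonotypes) in CD4 and 41.3 ± 6.54 (67 clonotypes) in CD8. A D segment was named in 54 of 75 (72.0%) in CD4, 40 with TRBD1 and 14 with TRBD2, against 77.7% of the clonotypes of other segments and 71.8% with TRBV26 left out. In CD8 it was named in 34 of 67 (50.7%), 24 with TRBD1 and 10 with TRBD2, against 73.8%, or 73.0% without TRBV26.

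J pairing by frequency reflected YAEQFF. TRBJ2-1 held 96.6% ± 2.07 (SD, n = 15) of TRBV21 frequency in CD4, followed by TRBJ2-7 with 0.603% ± 0.582 and TRBJ2-3 with 0.537% ± 0.716, and TRBJ1-6 held the least, 0.0588% ± 0.113. In CD8 TRBJ2-1 held 96.3% ± 2.52, TRBJ2-7 1.05% ± 1.45 and TRBJ2-4 0.443% ± 0.649, and TRBJ1-5 the least, 0.0286% ± 0.0601. By number of clonotypes other than YAEQFF, all 12 J segments listed in the tables were used. TRBJ2-1 led in CD4 with 13 of 75 (17.3%, against 9.31% of the clonotypes of other segments), and TRBJ2-7 led in CD8 with 11 of 67 (16.4%, against 21.5%). TRBJ2 segments together made up 65.3% of these clonotypes in CD4 and 59.7% in CD8, and 63.3% and 66.9% for the other V segments.

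Within a table, no TRBV21 CDR3 was listed under another V segment. This follows from the tables themselves, in which each of the 85775 and 82447 CDR3 amino acid sequences stands once, with 1 V and 1 J name. Across the tables it was otherwise. Of the 75 conventional TRBV21 CDR3s of CD4, 8 were listed in CD8, all 8 under another V segment, TRBV5 in 3 and TRBV12-1, TRBV13-1, TRBV14, TRBV17 and TRBV2 in 1 each. Of the 67 of CD8 other than YAEQFF, 9 were listed in CD4, all 9 under another V segment, TRBV13-1, TRBV16, TRBV2 and TRBV5 in 2 each and TRBV12-2 in 1. Over all segments, the V name differed between the tables in 64.7% of 17940 shared CDR3s other than YAEQFF. A row can thus hold reads of more than one V segment, and how much of a row was TRBV21 cannot be told apart here. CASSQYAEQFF (TRBV21 in CD8, TRBV2 in CD4) and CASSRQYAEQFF (TRBV21 in CD4, TRBV17 in CD8) were among these.

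Libraries before HCT shared more TRBV21 clonotypes with replicate 1 than with replicate 2 of their own genotype, as they did over all clonotypes. Summed over the 3 genotypes, the libraries before HCT listed 32 CD4 clonotypes other than YAEQFF. Of these, 22 were also listed in liver replicate 1 of the same genotype and 2 in liver replicate 2. Gut replicate 1 listed 11 of them and gut replicate 2 listed 1. In CD8, of 25 clonotypes the numbers were 15, 0, 11 and 2. Over all clonotypes of the tables, the shares in the same order were 71.8%, 19.8%, 58.6% and 10.4% in CD4. In CD8 they were 78.9%, 19.5%, 71.6% and 18.8%, so this pattern was not particular to TRBV21. Replicate 1 of liver and of gut were thus linked through the same library before HCT, and pairing of tissues by replicate number is not excluded. With the other genotypes, TRBV21 sharing was 1, 3, 1 and 0 of 64 possible in CD4, against 16.1%, 19.4%, 21.9% and 9.91% of all clonotypes. In CD8 it was 1, 2, 6 and 2 of 50, against 16.7%, 19.7%, 25.6% and 19.1%. Of 58 CD4 clonotypes listed in at least 2 of the 15 libraries, 49 were in 1 genotype, 8 in 2 and 1 in all 3, and of 51 in CD8 the numbers were 40, 9 and 2. Of all clonotypes so listed, 60.8% in CD4 and 61.7% in CD8 were in 1 genotype. The difference was not tested. No TRBV21 clonotype met the thresholds that the study set for host-reactive clonotypes, a frequency below 1e-05 before HCT and above 0.0001 on day 6 (here as means over the 3 libraries before HCT and over the 2 of a genotype and tissue). Of all clonotypes, 4.73% in CD4 and 4.93% in CD8 met them in at least 1 genotype and tissue.

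The number of TRBV21 clonotypes besides YAEQFF was lowest in gut replicate 2 in CD4 and low there in CD8 as well, where WT liver replicate 1 listed as few as WT gut replicate 2. In CD4 the libraries listed 14, 11 and 7 before HCT (WT, STAT3ko and STAT3koPD-1ko), 5 to 17 in liver and 23, 7 and 10 in gut replicate 1, but 2, 1 and 1 in gut replicate 2. In CD8 there were 5, 10 and 10 before HCT, 3 to 14 in liver, 12, 17 and 16 in gut replicate 1, and 3, 4 and 2 in gut replicate 2. Gut replicate 2 also stood apart in how much of a library was listed at all, 47.8% to 51.5% of reads in CD4 and 53.2% to 58.0% in CD8, against 81.6% to 97.2% and 81.5% to 98.4% in the other libraries. TRBV21 made up 0.0520% ± 0.0168 of the listed clonotypes of gut and 0.0706% ± 0.0168 of those of liver in CD4 (SD, n = 6 each), and 0.0508% ± 0.0159 and 0.0655% ± 0.0196 in CD8. Neither difference passed (exact two-sided permutation of tissue within genotype over 216 arrangements, p = 0.120 and 0.157, adjusted p = 0.252 in both over 8 such tests). With 1 library left out at a time, the CD8 difference of -0.0146 percentage points ranged from -0.0222 to -0.0102.

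**Figure D3:**
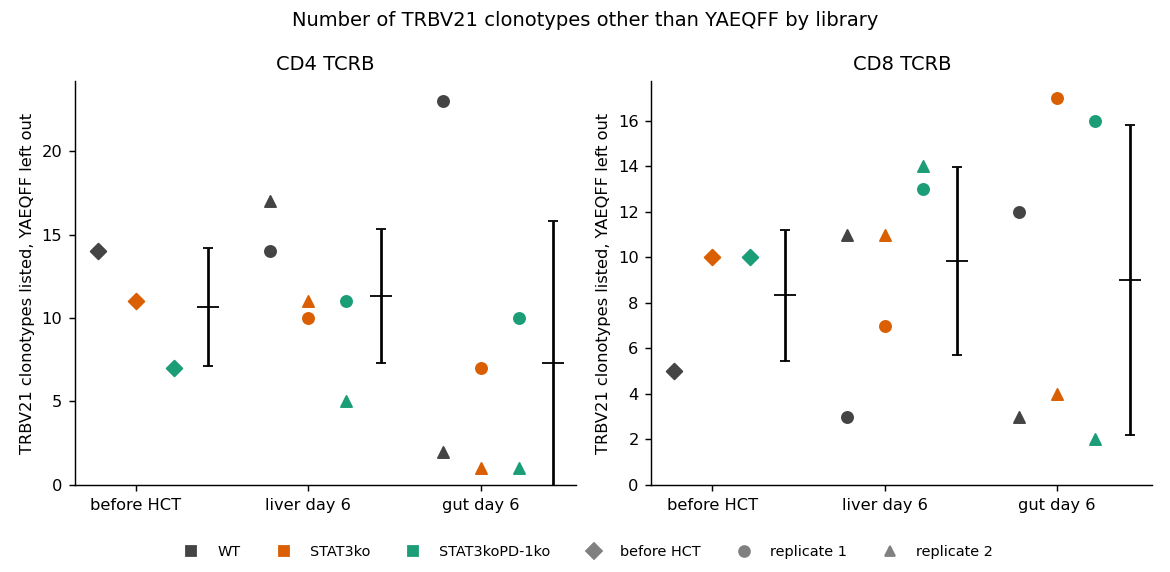
Number of TRBV21 clonotypes other than YAEQFF listed in each library (vertical, count) before HCT and in liver and gut on day 6, in CD4 (left) and CD8 (right). Colours are genotypes, circles and triangles replicates 1 and 2, diamonds libraries before HCT, and black bars mean ± SD of a tissue (drawn down to 0 at most), with gut replicate 2 at 1 or 2 clonotypes in CD4 and 2 to 4 in CD8.

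To ask whether TRBV21 differed between the target tissues, its usage in gut was compared with that in liver. In CD4, liver usage was 0.535% and 0.469% in WT, 0.496% and 0.388% in STAT3ko and 0.485% and 0.528% in STAT3koPD-1ko (replicates 1 and 2). Gut usage was 0.681% and 1.54% in WT, 0.926% and 1.40% in STAT3ko and 0.608% and 1.43% in STAT3koPD-1ko. All 6 gut libraries lay above all 6 liver libraries, as they did in 14.3% of the V segments, and gut replicate 2 was highest in each genotype. The mean was 1.10% ± 0.411 in gut and 0.484% ± 0.0533 in liver (SD, n = 6 each), a log2 change of 0.97 (SE 0.234, limma on log2(percent + 0.1), adjusted p = 0.00557 over 28 segments). Of the 28 segments, 71.4% passed in this comparison and 21.4% passed with gut higher, so a call was not unusual. These are bulk libraries, so more cells with a clonotype and more receptor RNA per cell cannot be told apart. Nearly all of this usage was YAEQFF, which has no cysteine and whose 18 bases are all present in germline TRBJ2-1. The values thus mostly describe this clonotype, and whether its reads came from TRBV21 receptors was not tested.

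The listed share of gut replicate 2 moves with this result. Taken as a percentage of all reads, without division by the listed share, CD4 usage was 0.569% and 0.738% (WT), 0.770% and 0.686% (STAT3ko) and 0.496% and 0.739% (STAT3koPD-1ko) in gut, and ran from 0.350% to 0.490% in liver. The 6 gut libraries were again all above the 6 liver libraries, as in 7.14% of the segments, with a log2 change of 0.50 (limma, adjusted p = 0.00563, 64.3% of segments called). Without gut replicate 2 the log2 change was 0.51 by listed frequency (adjusted p = 0.0213, 57.1% of segments called) and 0.39 by all reads (adjusted p = 0.0607, 50% called). A permutation test of the TRBV21 values alone gave the smallest p it can give for these libraries (exact, two-sided, p = 0.00926, adjusted p = 0.0556 over 12 tests), so that it could not have passed here.

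In CD8, TRBV21 usage in liver was 0.251% and 0.253% in WT, 0.275% and 0.259% in STAT3ko and 0.281% and 0.310% in STAT3koPD-1ko. In gut it was 0.258% and 0.631%, 0.305% and 0.554%, and 0.410% and 0.607%, so that 4 of 6 gut libraries exceeded all liver libraries and replicate 1 of WT and STAT3ko did not. The means were 0.461% ± 0.159 and 0.271% ± 0.0222 (SD, n = 6 each), with a log2 change of 0.54 (SE 0.180, limma, adjusted p = 0.0417 over 26 segments, of which 38.5% passed in either direction and 19.2% with gut higher). The call was lost with usage as a percentage of all reads, where the log2 change was 0.18 (adjusted p = 0.0678, 19.2% of segments called), and without gut replicate 2 (0.18, adjusted p = 0.0727). It was also lost in 10 of 12 omissions of 1 library (limma, adjusted p up to 0.0963). By all reads, gut stood at 0.306% ± 0.0373 and liver at 0.257% ± 0.0191.

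**Figure D4:**
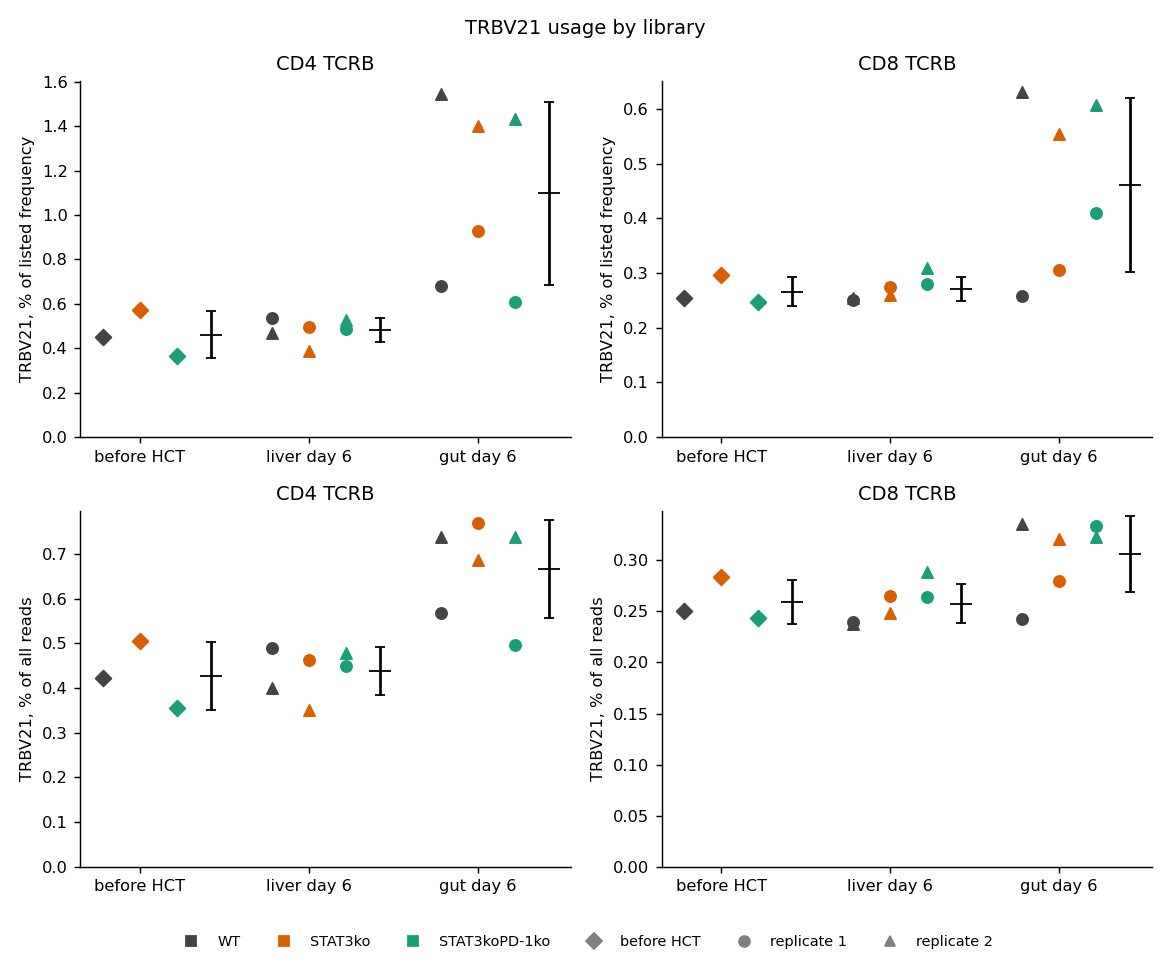
TRBV21 usage of each library in percent of listed frequency (upper panels) and in percent of all reads (lower panels), before HCT and in liver and gut on day 6, for CD4 (left) and CD8 (right) TCRB. Colours are genotypes, circles and triangles replicates 1 and 2, diamonds libraries before HCT and black bars mean ± SD of a tissue, with CD4 gut libraries at 0.608% to 1.54% above and 0.496% to 0.770% below.

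In absolute terms the difference in usage lay in YAEQFF, which took most of TRBV21. Mean TRBV21 usage was 0.615 percentage points higher in gut than in liver in CD4 and 0.190 in CD8, and that of YAEQFF was 0.624 and 0.188 points higher. The other TRBV21 clonotypes together stood at 0.0182% ± 0.0142 of listed frequency in gut and 0.0270% ± 0.0137 in liver in CD4 (SD, n = 6 each). This was a log2 change of -0.75 with no pseudocount, which did not pass (exact two-sided permutation within genotype, p = 0.204, adjusted p = 0.407 over 2 tests), and 0.088 without gut replicate 2. In CD8 they stood at 0.0175% ± 0.00586 and 0.0157% ± 0.00745, a log2 change of 0.50 (exact, p = 0.806, adjusted p = 0.806), in which WT liver replicate 1 was lowest at 0.00122%. Both groups overlapped in both tables, and changes of this size could not be told from the spread between libraries. As a percentage of all reads, YAEQFF in CD4 was 0.331% to 0.472% in liver and 0.471% to 0.760% in gut, and 5 of 6 gut libraries exceeded all liver libraries. In CD8 it was 0.220% to 0.270% in liver and 0.222% to 0.323% in gut, and 4 of 6 did. GAEQFF exceeded all liver libraries in 4 of 6 gut libraries in CD4 and 3 of 6 in CD8, where 1 gut library, STAT3ko replicate 1 at 0.00259%, lay below all of them. Relative to TRBJ2-1, YAEQFF made up 4.13% to 5.22% of that J segment's listed frequency in CD4 liver. In gut it made up 6.08% to 9.78% in replicate 1 and 17.9% to 18.3% in replicate 2. In CD8 the corresponding shares were 1.45% to 1.76%, 1.53% to 2.34% and 3.38% to 4.10%. These shares leave out unlisted reads, and gut replicate 2 listed 47.8% to 51.5% of reads in CD4 and 53.2% to 58.0% in CD8. By all reads, YAEQFF in CD4 was 0.471% to 0.760% in gut replicate 1 and 0.680% to 0.736% in gut replicate 2. In CD8 it was 0.222% to 0.317% and 0.312% to 0.323%.

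**Figure D5:**
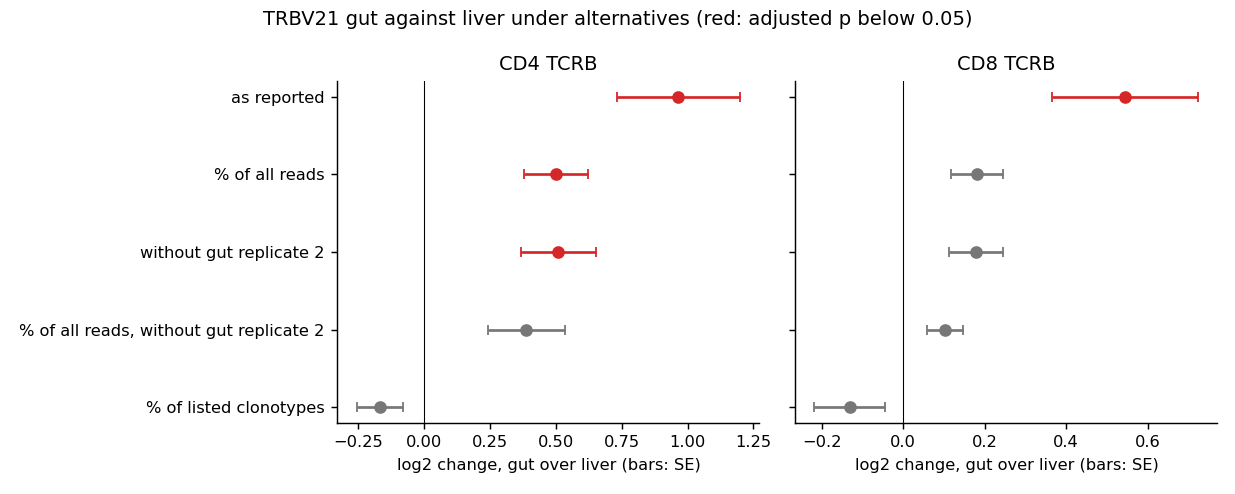
Log2 change of TRBV21 from liver to gut (horizontal, bars SE) by listed frequency, by all reads, without gut replicate 2, by all reads without gut replicate 2 and by number of listed clonotypes, in CD4 (left) and CD8 (right). Red points passed an adjusted p of 0.05 in limma, and the change of 0.97 in CD4 and 0.54 in CD8 falls to 0.39 and 0.10 by all reads without gut replicate 2.

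The composition of TRBV21 did not pass a test between gut and liver. The conventional share of TRBV21 frequency was 2.35% ± 2.47 in gut and 5.62% ± 2.70 in liver in CD4 (SD, n = 6 each, exact two-sided permutation p = 0.0556, adjusted p = 0.252), and 4.25% ± 2.32 and 5.48% ± 2.65 in CD8 (p = 0.463, exact, adjusted p = 0.529). The CD8 difference of -1.23 percentage points moved to -2.23 without WT liver replicate 1 and to -0.715 without STAT3koPD-1ko gut replicate 2. With clonotypes counted in at least 3 libraries, the CD4 difference of -3.27 fell in size to -0.372. The TRBJ2 share was 99.2% ± 1.05 and 98.0% ± 1.24 in CD4, and 98.4% ± 1.80 and 98.7% ± 1.13 in CD8 (exact, adjusted p = 0.252 and 0.731). The mean CDR3 length weighted by frequency was 18.6 bases ± 0.576 and 19.4 ± 0.674 in CD4, and 18.9 ± 0.537 and 19.3 ± 0.568 in CD8 (exact, adjusted p = 0.252 and 0.444). With 216 arrangements the smallest p was 0.00926, which a single measure among 8 tests could not bring below the threshold after adjustment. These tests could therefore not have passed for 1 measure alone, and none reached that p.

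Against the libraries before HCT, gut was higher, and the difference of liver did not pass. In CD4, usage before HCT was 0.449% (WT), 0.572% (STAT3ko) and 0.365% (STAT3koPD-1ko), with a log2 change of 0.066 to liver (SE 0.268, limma, adjusted p = 0.840, 7.14% of segments called) and of 1.03 to gut (SE 0.268, adjusted p = 0.00481, 67.9% called and 21.4% called higher). By all reads the log2 change to gut was 0.54 (adjusted p = 0.00557, 64.3% called). Without gut replicate 2 it was 0.58 (limma, adjusted p = 0.0113, 64.3% called), and by all reads as well 0.42 (adjusted p = 0.0413, 60.7% called). In CD8, usage before HCT was 0.255%, 0.296% and 0.247%, with a log2 change of 0.021 to liver (SE 0.205, limma, adjusted p = 0.976, 0 segments called and 2 at an unadjusted p below 0.05) and of 0.57 to gut (SE 0.205, adjusted p = 0.0406, 50% called and 23.1% called higher). The CD8 call was lost by all reads (0.17, adjusted p = 0.114) and without gut replicate 2 (0.20, adjusted p = 0.106, 30.8% called). It was also lost in 11 of 15 omissions of 1 library (limma, adjusted p up to 0.186). By number of listed clonotypes, TRBV21 changed in the opposite direction from before HCT to gut. The log2 value was -0.35 in CD4 (limma, adjusted p = 0.00961) and -0.30 in CD8 (adjusted p = 0.0291). In this direction 50% of the segments in CD4 and 23.1% in CD8 were called. These TRBV21 shares lay below the pseudocount except in CD4 WT before HCT, at 0.107%, so the changes look smaller. The gut comparisons with liver and with before HCT share the gut libraries.

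To assess whether the donor genotype mattered, the 4 day 6 libraries of each genotype were compared with tissue in the fit. CD4 usage was 0.807% ± 0.499 in WT, 0.802% ± 0.461 in STAT3ko and 0.764% ± 0.449 in STAT3koPD-1ko (SD, n = 4 each, across both tissues). The log2 changes were -0.013 for STAT3ko against WT, -0.041 for STAT3koPD-1ko against STAT3ko and -0.054 for STAT3koPD-1ko against WT (SE 0.287 each, limma, adjusted p = 0.976, 0.922 and 0.956). In CD8 the values were 0.348% ± 0.189, 0.348% ± 0.138 and 0.402% ± 0.148, with log2 changes of 0.034, 0.16 and 0.20 (SE 0.220 each, limma, adjusted p = 0.917, 0.726 and 0.705). With 1 library left out at a time, STAT3koPD-1ko in CD8 ranged from 0.024 to 0.28 against STAT3ko and from 0.0039 to 0.39 against WT. No V segment passed in any of these limma comparisons (0% of 28 and of 26), and at an unadjusted p below 0.05 there were 1, 6 and 7 segments in CD4 and 1, 3 and 6 in CD8, none of them TRBV21. Without gut replicate 2, TRBV21 in CD8 was higher at an unadjusted p below 0.05 in STAT3koPD-1ko than in WT, by a log2 value of 0.28 (limma, adjusted p = 0.0680), and by 0.21 with all reads (adjusted p = 0.0573). Against STAT3ko it was 0.18 higher (limma, adjusted p = 0.267), also with an unadjusted p below 0.05. None of these passed after adjustment, and 7, 8 and 4 of 26 segments had such an unadjusted p in the same fits. In CD4 these fits called 3.57% of the segments for STAT3koPD-1ko against WT, not TRBV21. The gut-to-liver change did not differ between genotypes beyond its error in either table (limma interaction, adjusted p of 0.840 to 0.979 over 6 terms).

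The V segments whose usage moved most like TRBV21 over the 15 libraries were TRBV24 (Pearson r = 0.86), TRBV8 (0.77) and TRBV23 (0.76) in CD4, and TRBV22 (0.82), TRBV8 (0.69) and TRBV13-1 (0.61) in CD8. These values are on log2(percent + 0.1), and the libraries share the listed share that separates gut replicate 2 from the rest. TRBV8 was in both lists, and its usage is nearly that of GAEQFF.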

How the data were processed

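The deposited tables hold, for each clonotype, its CDR3, its V, D and J names and its fraction of the reads of each library. The authors prepared 5' TCR libraries from RNA of sorted cells, called clonotypes with MiXCR and joined the libraries with VDJtools, and the labels name the build mm10. The fraction values had been formed before the join, which lists clonotypes counted in at least 2 of 18 libraries. The 3 libraries of a join beyond these 15 were not analysed here. No read counts are given, so depth is unknown, and 0 means only listed at 0. Nothing states that a clonotype's reads were counted by molecular identifier.

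Usage was the summed TRBV21 frequency divided by the listed frequency of a library. The fit of log2(percent + 0.1) used limma 3.58.1 (R 4.3.3) and ran over all V segments of a table, with a variance trend, Benjamini-Hochberg adjustment and a threshold of 0.05. The pseudocount makes changes of little used segments look smaller. Gut against liver and the genotypes were fitted on the 12 day 6 libraries with genotype and tissue as terms, and the comparisons with before HCT on all 15. The composition of TRBV21 was tested by exact permutation. The methods were tested on simulated data. The study's methods mention 2 batches, each combining 3 mice, and do not say which libraries were in each. Replicate numbers 1 and 2 may be these batches, which the labels do not state. Replicates are libraries of separate pools of recipients as far as the labels say, so p-values measure the spread between these libraries.

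Clonotypes named were, per table, the 4 of highest mean frequency, that of highest frequency in 1 library and that listed in the most libraries. Named J segments were the 3 of highest mean share and the lowest, and named V segments were the 3 most correlated with TRBV21, its neighbours in usage, those sharing its CDR3s and the pseudogenes. Because YAEQFF held 3 of these places, the TRBJ2-3 clonotype of CD4 was added after its values were seen, as were GAEQFF and SYEQYF. TRBV21 and these lists were chosen with earlier results of these data known. Germline ends, exons and coordinates were read from GENCODE vM21 (GRCm38, the assembly of mm10), in which 25 V segments had an end with the conserved tyrosine and cysteine.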

Additional observations from a re-analysis of the deposited data

Results flagged for a closer look

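Each tissue's 6 libraries were examined for a library far from the rest, 20 times in all, and chance alone gives about 1 in 20. In CD8, WT liver replicate 1 stood below the other liver libraries in 3 TRBV21 measures. Its conventional share of TRBV21 frequency was 0.488%, its mean CDR3 length 18.1 bases and its share of listed clonotypes 0.0276%, and these 3 values rest on the same 3 rare clonotypes beside YAEQFF. In CD8 gut, the TRBJ2 share of TRBV21 frequency was lowest in WT replicate 1, at 94.9%.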

How the results depend on the processing

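Of 440 repeats over 20 results, 366 kept direction and call, 35 kept direction and lost the call, 39 turned direction and 0 gained a call, counting as kept the CD4 conventional share without YAEQFF, which is 100% in every library. The causes were not tested unless the repeat itself shows one. Removing CDR3s listed under another V segment, or with a stop, removed 0 rows and so says nothing. Values below are log2 changes of usage unless a share is named. Without YAEQFF, usage lay below the pseudocount of 0.1, so these changes are near 0 by construction. CD4 gave -0.10 for gut against liver, -0.029 for liver and -0.13 for gut against before HCT and 0.045 for STAT3koPD-1ko against STAT3ko, and CD8 gave 0.023, -0.065, -0.042 and, for STAT3ko against WT, -0.020. With no pseudocount, a repeat added after the data were seen, gut against liver without YAEQFF was -0.75 in CD4 and 0.50 in CD8 (exact permutation, adjusted p = 0.407 and 0.806). By percent of listed clonotypes, the first 3 were -0.17, -0.18 and -0.35 in CD4 and -0.13, -0.17 and -0.30 in CD8, and STAT3koPD-1ko against STAT3ko was -0.058 in CD8. By all reads, CD8 gave 0.18 for gut against liver, -0.0068 for liver and 0.17 for gut against before HCT, and CD4 0.017 for STAT3ko against WT. Leaving out gut replicate 2 was also added after the data were seen. Without it, CD8 gave 0.18 and 0.20 for gut against liver and against before HCT, and, by all reads too, 0.10 and 0.10, with 0.39 for CD4 gut against liver. In CD4, STAT3ko against WT was then 0.027, and 0.053 by all reads too. A pseudocount of 0.5 gave 0.31 for CD8 gut against before HCT. Permutation of the TRBV21 values alone (12 tests) could not have passed, so the 4 calls counted as lost there say nothing of stability. It gave the smallest p for gut against liver (exact, 0.97 in CD4 and 0.54 in CD8, adjusted p = 0.0556 each), and for gut against before HCT, with 27 arrangements, 1.03 and 0.57 (adjusted p = 0.296 and 0.333). Clonotypes in at least 3 libraries gave 0.041 for STAT3ko and 0.011 for STAT3koPD-1ko against WT in CD4. In CD4 they moved the gut minus liver difference of the conventional share from -3.27 to -0.372, of the TRBJ2 share from 1.16 to 0.292 (17.0 without YAEQFF) and of the length from -0.833 to -0.0999 bases. They moved that of the clonotype share to 0.00640 percentage points in CD4 and 0.00758 in CD8, of the conventional share in CD8 to 0.565 and of the length in CD8 to 0.0978 bases. The CD8 conventional share without YAEQFF was 2.62 percentage points higher in gut.

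Leaving out 1 library at a time kept the CD4 calls, with gut against liver at 0.84 to 1.13 and gut against before HCT at 0.91 to 1.18. In CD8 the call of gut against liver was lost in 10 of 12 omissions (0.42 to 0.67, adjusted p up to 0.0963), all but those of WT and STAT3ko gut replicate 1. That of gut against before HCT was lost in 11 of 15 (0.45 to 0.69, adjusted p up to 0.186). Directions that had not passed turned for liver against before HCT (-0.047 to 0.20 in CD4, -0.075 to 0.10 in CD8), for the CD4 genotype comparisons in the order STAT3ko against WT, STAT3koPD-1ko against STAT3ko and STAT3koPD-1ko against WT (-0.22 to 0.18, -0.22 to 0.20 and -0.27 to 0.19), for STAT3ko against WT in CD8 (-0.16 to 0.23) and for the CD8 TRBJ2 share (-0.633 to 0.356 percentage points, positive without WT gut replicate 1). The CD8 conventional share difference ranged from -2.23 to -0.715 and the CD8 length difference from -0.551 to -0.212 bases, the extremes without WT liver replicate 1 and STAT3koPD-1ko gut replicate 2. A replicate block changed no call of usage, with gut against liver at 0.97 in CD4 (limma, adjusted p = 0.00387) and 0.54 in CD8 (adjusted p = 0.0200). For composition the block leaves 64 arrangements and a smallest p of 0.0312, at which the CD4 conventional share, TRBJ2 share and length all stood (exact permutation, adjusted p = 0.0833 each), so 3 measures could not pass and that repeat says nothing of stability. Deviations of same-numbered libraries correlated between liver and gut by -0.25 to 0.047 in CD4 and -0.044 to 0.23 in CD8, which cannot exclude pairing. Between genotypes they correlated by 0.21 to 0.58 (CD4) and 0.60 to 0.76 (CD8) in gut, where replicate 2 stands apart, and by -0.22 to 0.30 and -0.0036 to 0.37 in liver, so that not every pair deviated together. Comparisons with before HCT were matched by genotype in the fit, and no block by replicate number was run for them, since those libraries carry 1 number. Depth is unknown, and it limits the rare clonotypes most.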

Other observations

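Beside YAEQFF, a D segment was named in 34 of 67 TRBV21 clonotypes of CD8 and in 54 of 75 of CD4, a difference that was not tested, since the tables were joined separately. Leaving out YAEQFF, the share of TRBV21 clonotypes of 1 table found in the other was 10.7% in CD4 and 13.4% in CD8, against 20.9% and 21.8% of the clonotypes of all segments.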
